A study of Homo sapiens with 6 samples.

Results

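The 10 genes described here encode secreted proteins of the extracellular matrix: the small leucine-rich proteoglycans lumican (LUM) and biglycan (BGN), the matricellular proteins osteopontin (SPP1), thrombospondin 1 (THBS1), SPARC and transforming growth factor beta induced (TGFBI), the glycoproteins fibulin 1 (FBLN1) and fibronectin (FN1), and the large heparan sulfate proteoglycans agrin (AGRN) and perlecan (HSPG2). They were picked by symbol out of the 27685 genes of the count table, of which 14640 were tested, and all 10 were among the genes tested. They were chosen on the difference between the groups that is described below, so their differences are given as values, with no test. The genes come from Caco-2, an established human colorectal cancer line whose cells take on features of absorptive enterocytes. PolyA RNA was sequenced from cells mock-transfected with the pcDNA3 vector, labelled wild type in genotype, and from cells carrying a human FABP1 antisense construct (hFABP1as), labelled FABP1 knockdown. FABP1 encodes a fatty acid carrier of liver and intestine, and the series title asks how its knockdown affects gene expression. Each group had 3 libraries of the same line, numbered 2, 3 and 4 in the column headers, and nothing in the labels says how many transfected lines or clones, or how many separate cultures, stand behind them. A p-value here therefore measures the spread between libraries, which may be technical.

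FABP1 itself stood at 120 ± 18.0 CPM in the vector control libraries and at 134 ± 12.4 CPM in the libraries labelled FABP1 antisense (CPM, counts relative to scaled library size, mean ± SD, n = 3). The groups overlapped, with a log2 difference of 0.16 (SE 0.12, edgeR quasi-likelihood test with Benjamini-Hochberg adjustment over all tested genes, adjusted p = 0.268). The antisense label was thus not matched by a lower FABP1 count, and the groups are called by their labels throughout. The use of strand in counting was not given. Any reads of the antisense construct could therefore not be told apart from reads of FABP1 itself. Libraries held 40351394 to 57979037 counts. Across all tested genes 8054 passed an adjusted p of 0.05, which is 55.0% of them, with 27.7% higher and 27.3% lower in the antisense libraries. The groups did not overlap in 62.7% of genes.

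Small leucine-rich proteoglycans carry a short protein core that binds collagen fibrils and sets their spacing, and they also bind growth factors such as TGF-beta. Matricellular proteins are matrix-bound signals: they engage integrins, CD44 or other receptors and modulate adhesion without forming the scaffold. Fibronectin and the fibulins link cells to fibres and basement membranes, where perlecan and agrin hold growth factors on their heparan sulfate chains and bind laminin and dystroglycan. In the gut wall most of these proteins are known as products of stromal cells, while epithelial cells contribute to the basement membrane.

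All 10 genes passed the call rule and showed no overlap between groups, 2 higher and 8 lower in the antisense libraries. Since this contrast chose the genes, nothing is read from these counts against the 55.0% called and 62.7% without overlap among all genes. The 2 higher genes, LUM and SPARC, were the 2 lowest of the 10 in the control cells. Of the 8 lower genes, 5 were lower at least 2-fold on the fitted scale (SPP1, THBS1, HSPG2, BGN and AGRN) and 3 less (FBLN1, TGFBI and FN1). The median log2 difference of the 10 was -1.04, beside 0.01 over all tested genes. Together the 10 genes took 0.330%, 0.355% and 0.354% of the counts in control libraries 2, 3 and 4, and 0.215%, 0.223% and 0.208% in the antisense libraries in the same order. In bulk RNA, fewer cells expressing a gene and less RNA per cell cannot be told apart.

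**Figure D1:**
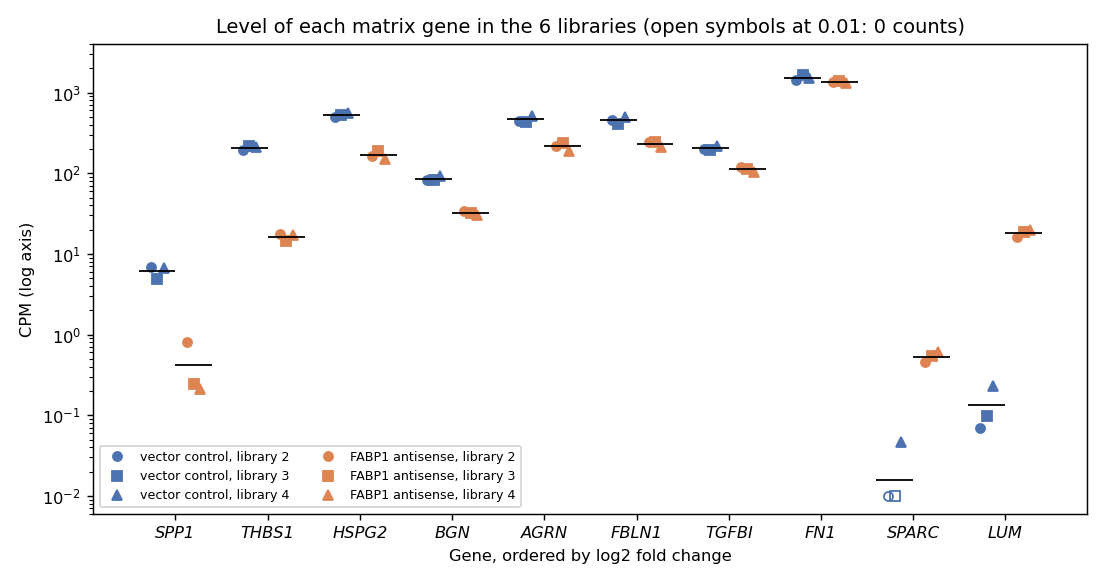
Level of the 10 matrix genes in each library, in CPM on a log axis, genes ordered by log2 difference (blue, vector control; orange, FABP1 antisense; black bars, group means; open symbols, libraries with 0 counts drawn at 0.01). LUM and SPARC sit higher in all 3 antisense libraries and the other 8 genes sit lower, with FN1 groups nearly touching at 1369 to 1374 against 1444 CPM.

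The promoter sequences of 4 genes are shown because they span the range of the 8 that had an entry: HSPG2 and THBS1 with repeated GC boxes, SPP1 and SPARC with none. Each line gives the 130 bases before the RefSeq transcription start (GRCh38.p14), 5′ to 3′ on the gene's own strand. Capitals mark GGGCGG, the GC box that Sp1-family factors bind, and CAGAC, a SMAD-binding element, on either strand.
HSPG2, chr1:21937311-21937440, minus strand: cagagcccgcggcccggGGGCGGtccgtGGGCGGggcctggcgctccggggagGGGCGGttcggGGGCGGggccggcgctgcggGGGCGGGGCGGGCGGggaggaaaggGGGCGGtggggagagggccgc
THBS1, chr15:39580949-39581078, plus strand: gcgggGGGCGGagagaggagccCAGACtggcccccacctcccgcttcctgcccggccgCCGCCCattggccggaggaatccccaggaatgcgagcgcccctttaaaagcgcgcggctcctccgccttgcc
SPP1, chr4:87975584-87975713, plus strand: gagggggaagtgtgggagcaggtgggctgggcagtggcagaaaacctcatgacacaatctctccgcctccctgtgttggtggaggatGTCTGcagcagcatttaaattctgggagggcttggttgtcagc
SPARC, chr5:151686916-151687045, minus strand: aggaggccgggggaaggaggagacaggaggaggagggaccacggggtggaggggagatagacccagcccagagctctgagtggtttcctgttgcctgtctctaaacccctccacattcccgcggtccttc

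In windows of 300 bases, from 250 before to 50 after the start, GGGCGG stood on either strand in 6 of the 8 genes, and in 44.6% of the 27305 promoters of the table. HSPG2 held 10 copies, FN1 6, BGN 5, THBS1 4, TGFBI 4 and FBLN1 1, with overlapping copies each counted. The window of HSPG2 was 83.3% G and C and that of THBS1 70.0%, while SPARC was at 61.3% and SPP1 at 47.7%, beside a median of 58.3% over all promoters. CAGAC, which can share an end base with GGGCGG, was in 5 of the 8 windows and in 45.0% of all promoters. Neither TATAAA (the TATA box, in 12.0% of all promoters), TGANTCA (AP-1, 7.76%) nor CTTTGAT (TCF/LEF, 2.64%) was in any of the 8 windows on either strand. These matches describe letters in the window only.

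Lumican, a keratan sulfate proteoglycan of collagen fibrils, showed the largest difference of the 10. LUM stood at 0.0695, 0.0980 and 0.233 CPM in control libraries 2, 3 and 4, and at 16.0, 18.9 and 19.5 CPM in antisense libraries 2, 3 and 4. The control libraries were close to the detection limit, at 4, 4 and 10 counts, while each antisense library held at least 659. The group means were 0.133 ± 0.0873 and 18.1 ± 1.87 CPM (SD, n = 3). The fitted log2 difference was 7.12 (SE 0.25), and the summed counts of 18 and 2602 gave a ratio of 144 (95% exact interval 90.8 to 243, counting error only). That SE was derived from the test statistic and is smaller than counting error alone at 18 control counts. The log2 difference of LUM was 7.75 without control library 4, the highest of the controls.

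Biglycan, the chondroitin or dermatan sulfate relative of lumican, went the other way. BGN was at 81.8, 81.6 and 91.3 CPM in the control libraries and at 34.0, 31.8 and 30.0 CPM in the antisense libraries. The antisense libraries lay close together and well under the lowest control. The mean was 37.6% of the control, from 84.9 ± 5.55 to 32.0 ± 2.0 CPM, with a log2 difference of -1.41 (SE 0.08). Per kilobase of transcript, lumican made up 0.0678%, 0.0958% and 0.203% of the summed LUM and BGN level in the control libraries and 27.3%, 32.2% and 34.1% in the antisense libraries. That sum still went down, from 34.1, 34.0 and 38.1 to 19.5, 19.5 and 19.0 CPM per kb, so the lumican gained was less than the biglycan lost.

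Decorin (DCN), the next gene to LUM on chromosome 12 and the best known relative of biglycan, had 0 counts in all 6 libraries, which allows up to 0.0212 CPM in the control and 0.0211 CPM in the antisense group (3 counts over the group). Keratocan (KERA) and epiphycan (EPYC), the neighbours of LUM on its other side and members of the same family, also had 0 counts. In the whole family list, 9 of the 14 other genes had 0 counts in every library and 4 were tested. TSKU (tsukushi), at 49.1 ± 1.05 CPM in control, fell by 0.32 on the log2 scale (SE 0.08, edgeR adjusted p = 0.00665). Fibromodulin (FMOD), a collagen-binding keratan sulfate proteoglycan, was at 102 and 90.6 CPM, a log2 difference of -0.18 (SE 0.08) that did not pass the test (edgeR adjusted p = 0.0917). ECM2 (2.48, edgeR adjusted p = 0.00329) and PODNL1 (2.94, edgeR adjusted p = 0.0208) rose from under 1 CPM. FMOD, ECM2 and PODNL1 were chosen for naming after their values were seen, and PODNL1 lost its call in 3 of 11 alternatives, all of which left out a library. For PODNL1 no control library reached the filter on low counts, at 9 counts over the group. PODNL1 was thus tested only through the antisense libraries, in which it is high.

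Osteopontin, a phosphoprotein that binds integrins and CD44 and is found at high levels in many carcinomas, was low in these cells. SPP1 was at 6.81, 4.90 and 6.62 CPM in the control libraries and at 0.801, 0.246 and 0.213 CPM in the antisense libraries. Antisense library 2 stood well above the other antisense libraries, yet far under the lowest control. The counts behind these values were 392, 200 and 284 against 33, 11 and 12, a ratio of control over antisense of 15.7 (95% exact interval 12.0 to 21.0, counting error only). The log2 difference was -3.91 (SE 0.41), and -4.73 without antisense library 2. Of the neighbours of SPP1 on chromosome 4, MEPE and IBSP, members of the same phosphoprotein family, had 0 counts. PKD2 next to it had a log2 difference of -0.11 (edgeR adjusted p = 0.456), and ABCG2, the gene after that, rose by 1.96 (edgeR adjusted p = 1.53e-06).

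Thrombospondin 1, a large glycoprotein that binds CD36 and CD47 and can activate latent TGF-beta, differed by almost as much as osteopontin. THBS1 was at 192, 219 and 211 CPM in the control libraries and at 17.5, 14.5 and 17.0 CPM in the antisense libraries. The groups lay far apart, and within each of them the libraries were close. The mean was 7.87% of the control, from 207 ± 13.7 to 16.3 ± 1.62 CPM, with a log2 difference of -3.67 (SE 0.10).

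TGFBI, an adhesion protein induced by TGF-beta that binds integrins and collagen, was lower by less. Its level was 202, 197 and 219 CPM in the control libraries and 120, 112 and 104 CPM in the antisense libraries. All 3 antisense libraries lay under the lowest control. The mean was 54.3% of the control, from 206 ± 11.8 to 112 ± 7.68 CPM (log2 difference -0.88, SE 0.08).

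SPARC, a collagen-binding glycoprotein of remodelling tissue, was at the edge of detection. It had 0, 0 and 2 counts in the control libraries and 19, 24 and 34 counts in the antisense libraries, which is 0, 0 and 0.0466 CPM against 0.461, 0.537 and 0.604 CPM. The ratio of the summed counts was 38.3, with a 95% exact interval of 10.2 to 322 that covers counting error only. No control library reached the filter on low counts, so SPARC was tested only through the antisense libraries in which it is high. The fitted log2 difference of 5.00 (SE 0.74) depends on the prior count, and it was 4.34 without control library 2 and 7.69 without control library 4. LUM likewise reached the filter in 1 of 3 control libraries and SPP1 in 2 of 3 antisense libraries, while the other 7 genes reached it in all 6.

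Fibulin 1, a calcium-binding glycoprotein of basement membranes and elastic fibres that binds fibronectin, was at 451, 409 and 492 CPM in the control libraries and at 241, 243 and 211 CPM in the antisense libraries. The libraries of each group lay near one another and the groups were far apart. The mean was 51.4% of the control, from 451 ± 41.5 to 232 ± 18.2 CPM, a log2 difference of -0.96 (SE 0.09).

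Fibronectin, the main adhesive glycoprotein of provisional matrix, was the highest of the 10 in CPM and differed least. FN1 was at 1444, 1641 and 1497 CPM in the control libraries and at 1369, 1374 and 1313 CPM in the antisense libraries. The lowest control and the highest antisense library nearly met. The mean was 88.5% of the control (1528 ± 102 and 1352 ± 33.8 CPM), with a log2 difference of -0.18 (SE 0.06) that ranged from -0.22 to -0.12 over 12 alternatives. FN1 was no longer called in 7 of the 12, among them 5 of the 6 that left out a library. Transcript forms of fibronectin, which plasma and cellular fibronectin differ by, were not analysed here.

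Perlecan and agrin, the basement membrane heparan sulfate proteoglycans, were both lower. HSPG2 was at 499, 529 and 565 CPM in the control libraries and at 163, 189 and 151 CPM in the antisense libraries. AGRN was at 447, 431 and 516 CPM in the control libraries and at 218, 237 and 189 CPM in the antisense libraries. In both genes antisense library 3 was the highest and library 4 the lowest of its group, and neither gene's groups came near each other. HSPG2 averaged 31.6% of the control (531 ± 33.1 and 168 ± 19.8 CPM, log2 difference -1.66, SE 0.10). AGRN averaged 46.1% (465 ± 45.0 and 215 ± 24.1 CPM, log2 difference -1.12, SE 0.10).

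COL18A1, the collagen core of the third basement membrane heparan sulfate proteoglycan, fell by 2.41 on the log2 scale (SE 0.08, edgeR adjusted p = 7.12e-08), from 170 ± 12.4 to 32.1 ± 1.33 CPM. TINAGL1, a basement membrane glycoprotein, fell by 0.90 (SE 0.08, edgeR adjusted p = 3.43e-05). TINAG, its close relative, rose by 2.54 (SE 0.21, edgeR adjusted p = 1.73e-05) from under 1 CPM. Nidogen 1 (NID1), which joins laminin to perlecan and collagen IV, was at 33.3 ± 1.5 and 37.0 ± 1.70 CPM and did not pass the test (log2 difference 0.15, edgeR adjusted p = 0.118). Of the 12 other genes on this list 4 were tested, and these are all of them.

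To compare levels between genes, CPM was divided by the median length of the matched GENCODE transcripts. In control cells FN1 had the highest mean at 193 ± 12.9 CPM per kb and FBLN1 followed at 185 ± 17.0, and their libraries overlapped. FBLN1 took 30.9%, 27.7% and 31.1% of the summed CPM per kb in control libraries 2, 3 and 4. FN1 took 30.5%, 34.2% and 29.2%, so it stood above FBLN1 in control library 3 only. TGFBI came next at 73.5 ± 4.22, then AGRN at 63.2 ± 6.11, and no libraries overlapped among these, though the lowest TGFBI and the highest AGRN library both rounded to 70.1. HSPG2 at 37.1 ± 2.31 and BGN at 35.3 ± 2.31 CPM per kb overlapped, so perlecan, whose long transcript gave it the second highest CPM, could not be set apart from biglycan per length. THBS1 followed at 26.7 ± 1.77, SPP1 at 4.15 ± 0.714, LUM at 0.0444 ± 0.0290 and SPARC at 0.00420 ± 0.00727.

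In the antisense cells the upper order of the means was the same: FN1 at 171 ± 4.26 CPM per kb, FBLN1 at 95.0 ± 7.48, TGFBI at 39.9 ± 2.74 and AGRN at 29.2 ± 3.28, now with no overlap between neighbours. BGN at 13.3 ± 0.831 and HSPG2 at 11.7 ± 1.38 overlapped again. LUM, at 6.03 ± 0.623, had passed THBS1 at 2.1 ± 0.209 and SPP1 at 0.285 ± 0.224, and SPARC at 0.144 ± 0.0193 overlapped with SPP1. Since FN1 was lower by the least, its share of the summed CPM per kb of the 10 genes went from 30.5%, 34.2% and 29.2% in the control libraries to 45.7%, 45.6% and 47.8% in the antisense libraries. The order of the gene means in each group was the same with the longest or the shortest transcript, a check added after seeing the data. Distances and overlaps depended on the length. With the shortest transcript FN1 was at 640 ± 42.7 and FBLN1 at 200 ± 18.4 CPM per kb in control, without overlap. TGFBI and AGRN then overlapped in control, and SPP1 and SPARC did not overlap in the antisense libraries. The shares above hold for the median length only.

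**Figure D2:**
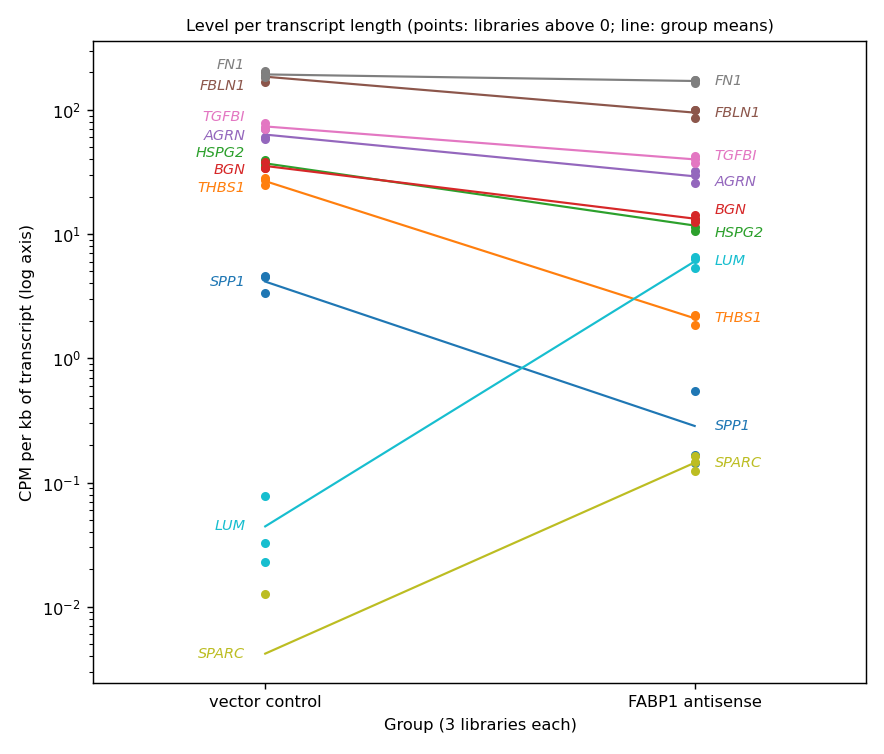
CPM per kilobase of transcript (log axis) in the 2 groups; points are libraries above 0 and lines join group means. The lines of LUM (0.0444 to 6.03 CPM per kb) and SPARC go up and the other 8 go down, and LUM crosses those of SPP1 and THBS1.

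Several of the genes lie among neighbours that also differed. Around AGRN, near the end of chromosome 1, 51 of the 53 nearest well expressed tested genes (mean log2 CPM of at least 3, up to 50 on either side) were lower in the antisense libraries, with a median log2 difference of -0.57. Around HSPG2, on the same chromosome, 92 of 100 were lower with a median of -0.49, and around FBLN1 on chromosome 22, 66 of 78 with a median of -0.33. The share of lower genes among all well expressed tested genes was not worked out. In other windows 26 of 100 were lower around SPP1, 25 of 100 around TGFBI and 23 of 100 around SPARC. Around THBS1 23 of 87 were lower, and around BGN 35 of 84. Against these medians the log2 difference of AGRN was offset by -0.55, that of FBLN1 by -0.63 and that of HSPG2 by -1.17. USP48, the closest tested gene before HSPG2, fell by 0.53 (edgeR adjusted p = 0.000334); LDLRAD2, which lies between them, had 6 counts in control and 0 in antisense libraries and was not tested. Of the genes on either side of AGRN, ISG15 fell by 0.94 (edgeR adjusted p = 0.00327) and RNF223 rose by 1.2 (edgeR adjusted p = 0.00526). Beyond a noncoding neighbour of FBLN1, ATXN10 fell by 0.32 (edgeR adjusted p = 0.00386). Whether a change along these chromosomes has a part in the lower AGRN, HSPG2 and FBLN1 levels was not tested.

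Around LUM, on chromosome 12, the neighbours leaned the other way: 13 of 100 were lower and the median was 0.52, beside 7.12 for LUM. FN1, at -0.18, was near the median of -0.11 around it on chromosome 2, where 62 of 100 genes were lower, and ATIC next to it fell by 0.34 (edgeR adjusted p = 0.00557). The medians were 0.22 around TGFBI and 0.28 around SPARC (both chromosome 5), 0.20 around THBS1 (chromosome 15), 0.24 around SPP1 (chromosome 4) and 0.07 around BGN (chromosome X). TGFBI, THBS1, SPP1 and BGN were thus offset by -1.10 to -4.15 from well expressed genes around them that leaned slightly higher or were near 0. The 2 genes directly after THBS1, too low to enter its window, also fell. FSIP1 fell by 1.03 (edgeR adjusted p = 0.0111) and LOC105370941 by 0.75 (edgeR adjusted p = 0.0192). The 2 genes directly before THBS1 had 0 counts.

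**Figure D3:**
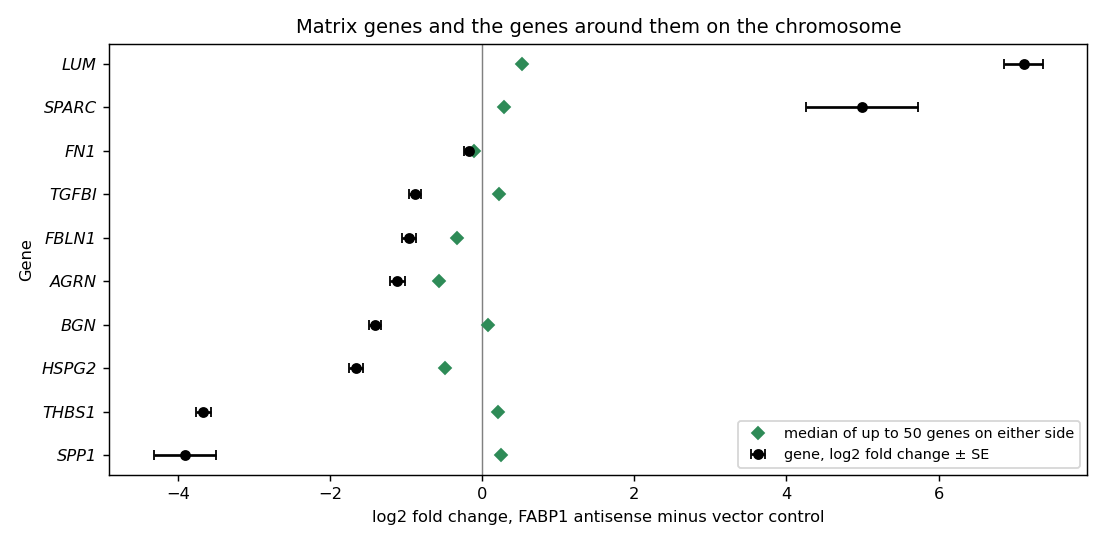
Log2 difference of each gene, FABP1 antisense minus vector control, with its SE (black), and the median of up to 50 well expressed tested genes on either side along the chromosome (green diamonds). The diamonds of AGRN (-0.57), HSPG2 (-0.49) and FBLN1 (-0.33) lie left of 0. That of FN1 (-0.11) lies near its own value (-0.18). The SE bars are derived from the test's F statistic and are smaller than counting error for LUM and SPARC.

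The genes whose levels across the 6 libraries lay closest to those of LUM, by root mean square difference of log2 CPM, were SLC26A3 (0.57), S100A9 (0.61) and AZGP1 (0.61). SLC26A3, the chloride and bicarbonate exchanger of the colon, went from 0.170 ± 0.0654 to 14.9 ± 0.665 CPM. Closest to SPP1 were NDST4 (0.41), a heparan sulfate sulfotransferase, C4B_2 (0.45) and DMRTA2 (0.49), and NDST4 went from 6.30 ± 0.852 to 0.464 ± 0.211 CPM. Closest to SPARC were TEX49 (0.17), PTH1R (0.22) and BOC (0.32), all under 1 CPM in every library. C4B_2 has a near-identical copy, so its count is uncertain.

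Related genes were read from 9 lists of matrix function, with the 10 genes left out. Of their 170 other genes 111 were tested, 37 rose (33.3%, beside 27.7% of all genes), 34 fell (30.6%, beside 27.3%) and 40 did not pass the test. Among the 111, 9 passed the filter on low counts only through 1 group, the group in which they are high. The median log2 difference of the 111 was 0.05. The lists were drawn up with earlier results of these data known.

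Among matricellular proteins, 10 of 28 other genes were tested, 6 rose and 2 fell, beside SPARC higher and SPP1, THBS1 and TGFBI lower. Of the 10 tested, 2 passed the filter on low counts only through 1 group. SMOC2 was among these, with 11 counts over the control libraries and 722 over the antisense libraries. It was thus tested only through the group in which it is high. SMOC2, a relative of SPARC, rose by 5.99 (SE 0.26, edgeR adjusted p = 2.97e-07), from 0.0767 ± 0.00894 to 5.09 ± 0.739 CPM. CYR61 (CCN1), an integrin-binding protein known as a YAP target, fell by 1.27 (SE 0.07, edgeR adjusted p = 1.5e-06), from 79.4 ± 2.84 to 33.0 ± 1.5 CPM. MATN2 fell by 1.00 (edgeR adjusted p = 8.59e-05). CTGF (CCN2), which often accompanies CYR61, had 0 counts in control and 2 in antisense libraries.

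Of the fibulin and microfibril genes, 10 of 18 were tested, 6 rose and 1 fell. FBLN2 rose by 4.07 (SE 0.23, edgeR adjusted p = 1.57e-06), from 0.276 ± 0.0608 to 4.60 ± 0.501 CPM, and FBLN5 by 2.16 (SE 0.17, edgeR adjusted p = 1.16e-05), both opposite to FBLN1. EFEMP1 (fibulin 3) had 0 counts. The TGF-beta binding proteins divided, in that LTBP3 fell by 1.56 (edgeR adjusted p = 1.33e-05), from 97.1 to 32.9 CPM, and LTBP4 rose by 1.09 (edgeR adjusted p = 1.28e-05), from 13.2 to 28.1 CPM.

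Receptors that bind the 10 proteins moved both ways, with 5 higher and 4 lower among 14 of 18 tested. Among the 14, 1 called gene passed the filter on low counts only through the group in which it is high. CD44, a receptor of osteopontin and hyaluronan, rose by 2.88 (SE 0.12, edgeR adjusted p = 2.71e-07), from 6.87 ± 1.18 to 50.7 ± 1.45 CPM, where SPP1 was lower. The integrin chain ITGB8, which with ITGAV activates TGF-beta, rose by 3.93 (edgeR adjusted p = 6.63e-08), from 2.31 to 35.2 CPM. ITGB5, the vitronectin and osteopontin receptor chain, fell by 0.82 (edgeR adjusted p = 1.81e-05), from 199 to 113 CPM. ITGAV was at 118 ± 21.1 and 106 ± 3.62 CPM with overlapping groups (edgeR adjusted p = 0.289), and ITGB1, the fibronectin receptor chain, rose by 0.21 (edgeR adjusted p = 0.0317), a call lost in 6 of 12 alternatives. The agrin receptors LRP4 and dystroglycan (DAG1, which also binds perlecan) fell by 0.85 (edgeR adjusted p = 0.000171) and fell by 0.43 (edgeR adjusted p = 0.00103), and AGRN and HSPG2 were lower too.

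Cell surface heparan sulfate proteoglycans included large falls. GPC3 (glypican 3) fell by 2.46 (SE 0.07, edgeR adjusted p = 3.38e-08), from 745 ± 31.0 to 136 ± 4.24 CPM, and SDC2 (syndecan 2) fell by 2.81 (SE 0.09, edgeR adjusted p = 5.85e-08), from 84.0 to 11.9 CPM. SDC4 was at 185 ± 6.97 and 190 ± 3.63 CPM, with overlapping groups (edgeR adjusted p = 0.63). In all, 4 of the 9 tested fell and 2 rose.

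Of the enzymes that build and trim glycosaminoglycan chains, the sugar polymers that proteoglycans carry, 30 of 35 were tested, 11 fell and 6 rose. Among the 30, 1 called gene passed the filter on low counts only through the group in which it is high. The xylosyltransferases, which start the chain on the core protein, went opposite ways: XYLT1 rose by 3.02 (edgeR adjusted p = 1.5e-07), from 1.70 to 13.8 CPM, and XYLT2 fell by 0.91 (edgeR adjusted p = 5.1e-05), from 107 to 57.2 CPM. SULF2, which removes sulfate groups from heparan sulfate outside the cell, rose by 3.70 (SE 0.09, edgeR adjusted p = 2.25e-08), from 8.11 ± 0.317 to 106 ± 7.48 CPM.

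All 13 genes of the TGF-beta list were tested, 5 rose and 3 fell. TGFB1 was at 77.7 ± 10.1 and 88.8 ± 6.44 CPM with overlapping groups (edgeR adjusted p = 0.143). TGFB2 fell by 4.52 (SE 0.28, edgeR adjusted p = 2.82e-06), from 3.60 to 0.155 CPM, and TGFB3 fell by 1.28 (edgeR adjusted p = 3.08e-05). For TGFB2 no antisense library reached the filter on low counts, at 22 counts over the group. TGFB2 was thus tested only through the control libraries, in which it is high. SKIL, a feedback regulator known to be induced by TGF-beta, rose by 0.94 (edgeR adjusted p = 0.000286), while TGFBI and THBS1 were lower.

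In the list of crosslinking and processing enzymes 4 rose and 6 fell of 17 tested. Of the 17, 3 passed the filter on low counts only through 1 group. These 3 are among the called genes and were tested only through the group in which they are high. HTRA1, a secreted protease that cleaves fibronectin and biglycan, rose by 3.75 (SE 0.11, edgeR adjusted p = 3.9e-08), from 4.11 ± 0.536 to 55.7 ± 2.11 CPM. PCOLCE, which enhances procollagen processing, fell by 2.47 (edgeR adjusted p = 2.76e-07), from 43.7 to 7.89 CPM.

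**Figure D4:**
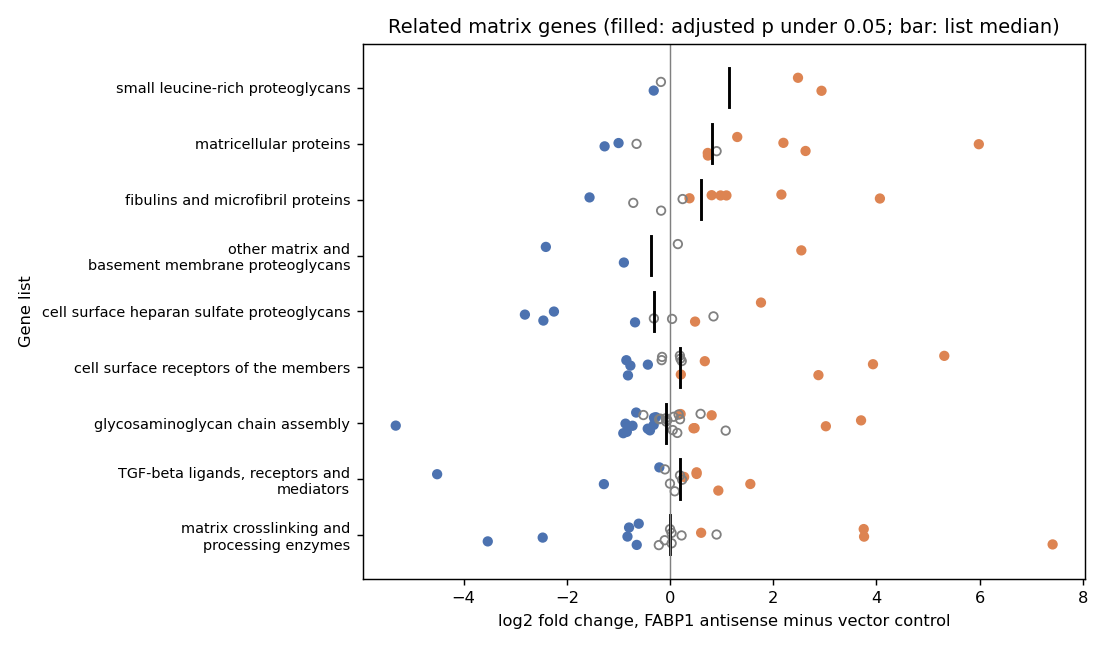
Log2 difference of each tested gene in the 9 related lists, the 10 genes left out (filled, adjusted p under 0.05, orange higher and blue lower; open, not past it; black bar, list median). Each list has genes on both sides of 0, and the medians run from -0.37 for other matrix and basement membrane proteoglycans to 1.15 for the small leucine-rich list, which rests on 4 genes.

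Stromal cells are the usual source of several of these proteins, so their markers were read in the same libraries. Of 14 stromal markers COL1A2, DCN, THY1 and TWIST1 had 0 counts in every library, and 7 were tested, of which 4 rose and 2 fell. VIM was at 0.258 ± 0.0331 and 0.512 ± 0.122 CPM. The summed level of the list was 40.8 to 43.5 CPM in control and 18.7 to 19.5 CPM in antisense libraries. Most of that fall was PDGFRA alone, which went from 22.7 ± 3.49 to 0.386 ± 0.285 CPM (edgeR adjusted p = 1.42e-06). PDGFRB also fell, from 6.69 to 3.06 CPM. COL1A1, at 8.32 and 8.05 CPM, did not pass the test. COL3A1 and COL5A1 each rose by 0.69, and VIM and DES rose from under 1 CPM. No control library reached the filter on low counts for DES, which was tested only through the antisense libraries. Of 10 epithelial markers 9 were tested, 6 rose and 1 fell. LGALS4 (log2 difference 4.77, edgeR adjusted p = 1.97e-07) and KRT20 (3.17, edgeR adjusted p = 2.82e-06) rose from under 1 CPM. CDH17 (1.32, edgeR adjusted p = 8.77e-07) and CDX2 (1.09, edgeR adjusted p = 1.06e-05) also rose. KRT18 (0.27, edgeR adjusted p = 0.0369) and CDH1 (0.20, edgeR adjusted p = 0.0248) rose by less. VIL1 fell by 0.20 (edgeR adjusted p = 0.0367), from 507 to 441 CPM. EPCAM (edgeR adjusted p = 0.382) and KRT8 (edgeR adjusted p = 0.312) did not pass the test. The summed level of the epithelial list, most of it KRT8 and KRT18, was 13088 to 15980 CPM in control and 15221 to 17913 CPM in antisense libraries, which overlapped. Whether the rise of 6 of these markers has a part in the differences of the 10 genes was not tested. Leukocyte markers summed to 44.6 to 48.7 and 64.3 to 67.3 CPM with PTPRC at 0 counts, and endothelial markers to 0.833 to 1.42 and 2.39 to 2.67 CPM with CDH5, KDR, TEK and CLDN5 at 0 counts. Hepatocyte markers, several of which Caco-2 cells express, summed to 2614 to 2924 and 1477 to 1668 CPM.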

How the data were processed

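The deposited table gave read counts per gene and library, not normalized by the authors, for genes by Entrez ID and symbol. Reads were handled with HISAT2 2.1.0, StringTie 1.3.4d, Trimmomatic 0.38, Bowtie2 2.3.4.1 and bcl2fastq on GRCh37, per the submitters' processing notes. The counting method with its use of strand was not given in the sources used here; overlapping and antisense genes could not be told apart. A further 12 per-library columns, FPKM and TPM per the file headers, were not used. Columns were matched to groups only, because headers number libraries 2, 3 and 4 and the labels 1, 2 and 3.

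Counts were filtered (filterByExpr of edgeR 4.0.16, minimum count 10), scaled by TMM and compared with edgeR's quasi-likelihood test in R 4.3.3, with Benjamini-Hochberg adjustment over 14640 genes and a threshold of 0.05. Each SE was derived as the absolute log2 difference divided by the square root of the test's F statistic. It can be smaller than counting error where a group holds few counts, as for LUM, SPARC and SMOC2. The biological coefficient of variation was 11.8%. Counts of libraries within a group differed beyond sampling noise (chi-square over its degrees of freedom, 14.3 to 41.2). DESeq2 1.42.0 was an alternative. Tables were made in Python 3.11.15. The order of genes was read, without coordinates, from RefSeq's GRCh38.p14 annotation, where 99.7% of tested genes were found. Promoters came from RefSeq; LUM and AGRN had no entry.

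The 10 genes, the lists and the tests were chosen with earlier results of these data known. Named besides the 10 were FABP1, 14 key genes, up to 4 genes per list with the largest log2 difference (adjusted p under 0.05, mean log2 CPM at least 1, no overlap of groups), and the 3 genes nearest to each of LUM, SPARC and SPP1. Immediate neighbours and marker genes were named for their position or list. A gene that this rule selects is not reported here.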

Additional observations from a re-analysis of the deposited data

How the results depend on the processing

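Alternatives covered scaling (DESeq2 size factors, library size only), the filter on low counts, the DESeq2 Wald test, leaving out each library, and a replicate block on the header numbers. Of 119 values of the 10 genes under these, none changed sign, and 4 moved by more than the spread between libraries: LUM 7.75 without control library 4, SPP1 -4.73 without antisense library 2, and SPARC 4.34 and 7.69 without control libraries 2 and 4. SPARC was untested at a minimum of 1 CPM in 3 libraries. Leaving out a library gave 3510 to 4108 genes higher and 3449 to 3951 lower, and 28 to 38 higher and 30 to 34 lower in the related lists. Of 58 called genes picked by the naming rule or the text besides the 10, 55 kept direction and call under each alternative run, and ITGB1, VIM and PODNL1 lost the call under at least 1. The markers KRT18, CDH1, VIL1, PDGFRB, COL3A1, COL5A1 and DES were not among the 58. Nor were FSIP1 and LOC105370941, the neighbours of THBS1. Around BGN the median of neighbours was -0.04 with 25 genes on either side. With the replicate block 3355 genes were higher and 3306 lower, and in the related lists 28 and 29. The numbers were not taken to pair the libraries: deviations of same-numbered libraries correlated at 0.11, -0.28 and -0.25. Depth limits LUM and SPARC in control libraries, where 3 counts over the group are 0.0212 CPM.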
